A study of Mus musculus with 4 samples.

Results

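Replication-dependent histone genes encode the bulk histones that package newly copied DNA. They were taken from the deposited table as every gene whose symbol begins with Hist1h, Hist2h, Hist3h or Hist4h, which gave 70 of 52630 gene identifiers. By class there were 6 linker histone H1 genes, 20 H2A, 19 H2B, 12 H3 and 13 H4 genes. The annotation lists 67 of them as protein-coding and Hist1h2aj, Hist1h2al and Hist3h2bb-ps as pseudogenes. Transcripts were measured by RNA sequencing in AML12 cells, a non-tumour mouse hepatocyte line derived from mice transgenic for human TGF-alpha. One group received lentivirus with a control hairpin (shCtrl, 2 libraries) and the other lentivirus with a hairpin against Topors (shTopors, 2 libraries). Topors encodes a ligase that attaches ubiquitin and SUMO. Both groups were grown with 0.1 µM dexamethasone and serum, received 200 µl of virus concentrate, had the medium changed at 24 h and were collected on day 5. The number of hairpins is not stated in the labels, nor is it stated that the libraries are separate cultures, so the p-values below may reflect technical spread only.

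Most cellular mRNAs end in a poly(A) tail, but replication-dependent histone mRNAs end just after a conserved stem-loop, which is bound by the protein Slbp. Cleavage there needs the U7 small nuclear ribonucleoprotein, and the mRNAs accumulate in S phase and are degraded when DNA synthesis ends. Ribosomal RNA was depleted before these strand-specific libraries were made and no poly(A) selection is named, so transcripts without a tail could be measured. Some of these genes also give longer, polyadenylated transcripts, which are described in differentiated and non-dividing cells.

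The genes lie in 4 clusters on the mm10 (GRCm38) assembly. Hist1 holds 56 of the genes on chromosome 13, with 19 between 21715763 and 21837530, 5 between 22035164 and 22043676, 31 between 23531050 and 23934851, and the pseudogene Hist1h2al alone at 51202727 to 51203065. Hist2 holds 10 genes on chromosome 3 between 96219865 and 96270132. Hist3 holds 3 on chromosome 11 between 58948920 and 58956830, and Hist4 is the single gene Hist4h4 on chromosome 6, from 136801553 to 136804415.

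A stem-loop of 16 bases was found after the stop codon in the annotated transcript of 46 of the 67 coding genes. The other 21 models include short ones that stop at or near the stop codon, and for these no stem-loop says only that it is outside the model. They also include the longer models of Hist1h2bc, Hist1h2bq, Hist1h2br and Hist2h2be. With 742 to 2192 bases after the stop codon, these held no stem-loop with fully paired arms of the form searched. The sequences below, from GENCODE M21 transcripts, show each form found, with 1 gene for each, as DNA letters with the paired arms of the stem in capitals and the loop of 4 bases in lower case.
Hist1h1c, chr13:23739512-23739527, plus strand: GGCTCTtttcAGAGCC
Hist1h2bb, chr13:23747203-23747218, plus strand: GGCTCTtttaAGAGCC
Hist2h2ac, chr3:96220418-96220433, minus strand: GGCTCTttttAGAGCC
Hist1h3g, chr13:23535889-23535904, plus strand: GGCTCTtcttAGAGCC
Hist1h4n, chr13:21831798-21831813, minus strand: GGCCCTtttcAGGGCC
Hist1h4i, chr13:22040966-22040981, minus strand: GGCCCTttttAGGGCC
Hist1h4a, chr13:23760800-23760815, minus strand: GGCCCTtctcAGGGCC
Hist1h4b, chr13:23757366-23757381, plus strand: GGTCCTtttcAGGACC

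The form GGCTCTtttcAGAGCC was the commonest and stood in 26 genes of the classes H1, H2A, H2B and H3. The variant loop in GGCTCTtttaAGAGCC stood in 6 genes, among them Hist1h3c and Hist1h3e. Every H4 stem-loop found, in 12 of the 13 H4 genes, had another arm: GGCCCT in 10 of them and GGTCCT in Hist1h4b and Hist1h4j. No stem-loop found in an H1, H2A, H2B or H3 model had either arm.

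Promoters of 62 of the genes were matched in RefSeq (GRCm38.p6), as windows from 250 bases before to 50 after the start, and were searched for 5 motifs known from histone promoters. Windows of 3 genes are shown because each holds the class motif of a gene whose values come below, with 150 bases before the start, read 5′ to 3′, and the motif in capitals.
Hist1h1b, chr13:21780626-21780775, minus strand: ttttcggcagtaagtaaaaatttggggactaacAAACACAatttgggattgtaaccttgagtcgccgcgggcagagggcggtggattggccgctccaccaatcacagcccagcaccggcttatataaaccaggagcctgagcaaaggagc
Hist2h2bb, chr3:96269550-96269699, plus strand: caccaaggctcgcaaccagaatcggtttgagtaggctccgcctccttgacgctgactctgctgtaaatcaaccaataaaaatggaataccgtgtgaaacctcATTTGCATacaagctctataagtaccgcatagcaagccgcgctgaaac
Hist1h4i, chr13:22041363-22041512, minus strand: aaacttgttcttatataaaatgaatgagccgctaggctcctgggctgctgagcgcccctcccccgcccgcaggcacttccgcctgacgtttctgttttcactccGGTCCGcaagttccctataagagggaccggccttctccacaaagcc

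The H1 box AAACACA began at position -117 in Hist1h1b, the octamer ATTTGCAT at -48 in Hist2h2bb and GGTCCG, part of the H4 element bound by Hinfp, at -46 in Hist1h4i. These motifs and CCAAT were searched on both strands and TATAAA on the sense strand, and none of the 5 lies inside another. AAACACA was in 5 of 6 H1 windows against 7.18% of 32482 other RefSeq promoters. ATTTGCAT was in 7 of 16 H2B and 7 of 18 H2A windows, in 0 of H1, H3 and H4, and in 1.71% of the others. Windows of H2A and H2B genes that lie back to back can overlap, as for Hist1h2ae and Hist1h2bg. A site found on either strand can then count in both classes. GGTCCG was in 11 of 12 H4 windows against 8.29% of the others. CCAAT, the site of the factor NF-Y, was in all windows of H1, H2A, H2B and H3 but in 3 of 12 of H4, and in 37.3% of the others. TATAAA was in 30 of the 62 windows and in 8.20% of the others. A match describes the letters of the window and does not show binding.

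Levels are given as TPM, a share of the transcripts in a library after scaling by transcript length. The longest annotated transcript has 312 bases for Hist1h4k and 7425 for Hist1h1d. Ranks, shares and ratios between genes therefore depend on the lengths that the TPM used. The authors' TPM keeps no read depth, so the depth behind each value is unknown and no counting interval is given. Totals per library were 999914 to 999943. The target Topors had 21.9 and 29.2 TPM in the controls and 4.31 and 4.65 after knockdown, so the groups did not overlap, with a log2 difference of -2.27 and a limma adjusted p of 0.082. Of the hepatocyte markers, Krt8 was at 2096 to 3218 TPM and Hnf4a at 95.3 to 178.6 in the 4 libraries, while Alb was at 118 and 271 in shCtrl but at 4.15 and 402 in shTopors, so shTopors 1 stood apart. Of 9 hepatocyte markers found, 1 was higher and 2 were lower without overlap and 6 overlapped, with a median log2 difference of -0.14. Over all 13509 tested genes, 14.6% were higher and 35.2% lower without overlap, and the median was -0.18. Ttr, a plasma protein gene of hepatocytes, was at 1119 and 2168 TPM in shCtrl and 195 and 410 in shTopors (log2 difference -2.46, adjusted p 0.129), and Apob at 319 and 360 against 270 and 144 (-0.78, adjusted p 0.328). Krt18 was at 2069 and 1719 TPM against 3239 and 2168 (0.49, adjusted p 0.395). Summed markers of other liver cell types ranged from 0.333 to 1.02 TPM for 6 stellate and fibroblast genes, 0.0626 to 0.227 for 5 endothelial genes and 0.910 to 1.38 for 5 leukocyte genes, with Lrat, Col3a1, Cdh5, Adgre1 and Cd79a listed at 0 in every library. The 5 bile duct genes summed to 952 and 1412 TPM in shCtrl and to 1891 and 1088 in shTopors, which overlap. That sum joins Sox9, lower without overlap at 76.8 and 91.2 TPM in shCtrl against 26.9 and 42.1 (-1.29, adjusted p 0.176), and Krt19, higher without overlap at 341 and 296 against 1396 and 345 (1.13, adjusted p 0.405).

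Histone transcripts were more abundant in both knockdown libraries than in both controls. Summed over the 70 genes they reached 4705 and 6197 TPM in shCtrl and 10931 and 8205 TPM in shTopors, or 0.471% and 0.620% of all TPM against 1.09% and 0.821%. The means were 5451 ± 1055 and 9568 ± 1927 TPM (SD, n = 2 each), a ratio of 1.76, with an exact two-sided permutation p of 0.333, the smallest that 2 libraries against 2 allow. The spread within each group was large: shTopors 1 was above shTopors 2, and shCtrl 2 above shCtrl 1. In a population of cells, more cells in S phase and more histone RNA per cell cannot be told apart from these values.

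Gene by gene, 67 histone genes averaged at least 1 TPM over the 4 libraries and were tested in one limma fit of log2(TPM + 1) over 13509 genes. All 67 also averaged at least 1 TPM in shCtrl alone. No histone gene passed an adjusted p of 0.05 in either direction, against 0.0074% of all tested genes called higher and 0.0296% called lower. At an unadjusted p under 0.05, 46 of the 67 were higher and 0 lower, beside 3.98% higher and 10.7% lower among all genes. Both shTopors libraries lay above both shCtrl libraries for 57 histone genes, or 85.1%, against 14.6% of all genes, and below both for 1, against 35.2%. Their median log2 difference was 0.88, where that of all genes was -0.18, and 65 of the 67 lay above the all-gene median. Differences ranged from -1.05 to 2.41, with 64 above 0 and 3 below. On the log2(TPM + 1) scale differences of low genes are understated.

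These counts depended on single libraries. Without shCtrl 1, 10 histone genes were higher and 0 lower with an unadjusted p below 0.05, against 0.996% and 5.73% of all genes, and 0 passed the adjusted threshold, against 0.00744% higher and 0.0223% lower. Without shCtrl 2 the unadjusted counts were 39 and 0, against 2.08% and 2.95% of all genes. Without shTopors 1 they were 38 and 0, against 5.27% and 15.3%, and 7 histone genes passed the adjusted threshold as higher and 0 as lower, against 1.78% and 6.77%. Without shTopors 2 they were 54 and 1, against 8.95% and 19.6%, and 41 passed the adjusted threshold as higher and 1 as lower, against 4.7% and 10.2%. A lone library is there assumed to vary like those of the other group. Within shTopors, library 1 exceeded library 2 for 62 of the 67 histone genes, against 6519 of all 13509 genes. Within shCtrl, library 2 exceeded library 1 for 61 of the 67, against 9615 of 13509.

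By class, the linker histones had a lower median log2 difference than the core histones (the plot of class sums by library). H1 had a median of 0.23 over 5 tested genes, and 1 of them did not overlap between groups. The medians were 0.98 for 19 H2A genes, 0.88 for 19 H2B, 0.71 for 11 H3 and 0.74 for 13 H4, with 18, 15, 10 and 13 genes higher without overlap. The shares of all tested genes without overlap were 14.6% higher and 35.2% lower. The H1 median lay under that of each core class in the fit as reported and in all 16 alternative fits. Those that changed only the variance model or added a replicate block cannot move it, and all draw on the same libraries. The H1 median changed sign when shCtrl 1 (-0.07) or shTopors 1 (-0.06) was left out.

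**Figure D1:**
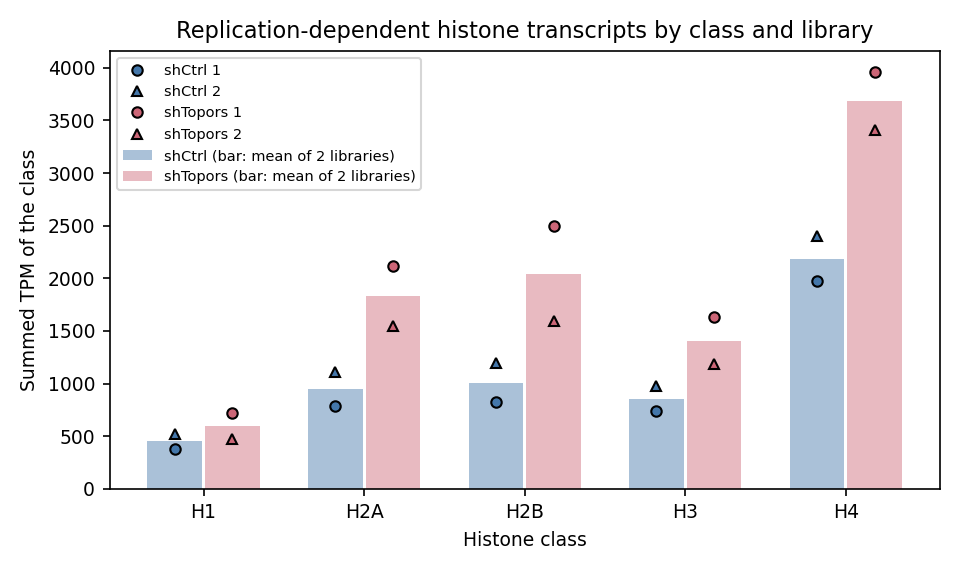
Summed TPM of each histone class (y axis, from 0) for each library, as points, with bars for the mean of the 2 libraries of a group. The shTopors points lie above both shCtrl points for H2A, H2B, H3 and H4, while those of H1 overlap the controls.

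H1 transcripts summed to 378 and 523 TPM in shCtrl and to 716 and 470 in shTopors, which overlap (ratio of means 1.32, exact permutation p = 0.667). Core histone transcripts summed to 4327 and 5674 TPM in shCtrl and to 10215 and 7735 in shTopors, without overlap (ratio 1.79, exact permutation p = 0.333). H1 TPM per core histone TPM was therefore 0.0875 and 0.0922 in shCtrl and 0.0701 and 0.0608 in shTopors. All 4 core classes were higher in both knockdown libraries, with a ratio of means of 1.93 for H2A, 2.03 for H2B, 1.64 for H3 and 1.69 for H4, each with the smallest possible exact permutation p of 0.333.

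H1 proteins bind the linker DNA between nucleosomes, and the 5 somatic genes detected differed from each other. Hist1h1b was at 83.0 and 108 TPM in shCtrl and 233 and 157 in shTopors, without overlap, with a log2 difference of 1.01 ± 0.28 (SE) and an adjusted p of 0.224. Hist1h1c, the most abundant control H1 transcript, was at 123 and 166 TPM in shCtrl and 175 and 110 in shTopors, which overlap, with a log2 difference of -0.05 ± 0.30. Its sign turned in 4 alternatives given in the closing section. Within the summed H1 TPM, the share of Hist1h1b was 21.9% and 20.6% in shCtrl and 32.6% and 33.3% in shTopors, and that of Hist1h1c was 32.6% and 31.8% against 24.4% and 23.3%. Both shares kept the groups apart by more than the libraries of a group differed, although the H1 sum did not. The other somatic H1 genes, Hist1h1a, Hist1h1d and Hist1h1e, overlapped between groups, with log2 differences of 0.47, 0.23 and 0.10. In the annotation the transcripts of Hist1h1c, Hist1h1d and Hist1h1e run 880, 4931 and 1209 bases past the stop codon, and those of Hist1h1a and Hist1h1b 48 and 0.

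H2A and H2B form the dimers that flank the central tetramer of the nucleosome. The most abundant H2A gene, Hist2h2ac, was at 111 and 159 TPM in shCtrl and 299 and 217 in shTopors. It did not overlap between groups, and its log2 difference was 0.93 ± 0.28 (SE) with an adjusted p of 0.233. Hist1h2ai was at 105 and 144 TPM in shCtrl and 273 and 210 in shTopors, also apart (log2 difference 0.96). Hist1h2ab had the smallest p of the class, at 56.7 and 70.3 TPM in shCtrl and 178 and 122 in shTopors, with a log2 difference of 1.21 ± 0.28 and an adjusted p of 0.176. Other H2A values came with limits. Hist2h2ab was at 15.7 TPM in shCtrl 1, was listed at 0 in shCtrl 2, and was at 21.5 and 19.9 in shTopors, so its fitted difference of 2.41, the largest here, rests on a value of 0 that may be a failed estimate. Hist2h2aa1 had the lowest difference, -1.05 ± 0.82, with 10.3 and 38.1 TPM in shCtrl and 3.56 and 21.6 in shTopors. Its coding sequence is identical to that of Hist2h2aa2, which was at 82.1 and 130 TPM in shCtrl and 251 and 168 in shTopors, so how reads were divided between these copies is uncertain.

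Among H2B genes, Hist2h2bb was the most abundant and had the largest difference. It was at 107 and 144 TPM in shCtrl and 502 and 249 in shTopors, a log2 difference of 1.50 ± 0.36 with an adjusted p of 0.178. Its share of H2B TPM was 13.1% and 12.1% in shCtrl and 20.1% and 15.6% in shTopors. The stem-loop-bearing Hist1h2bb was at 83.4 and 127 TPM in shCtrl and 336 and 199 in shTopors (log2 difference 1.32, adjusted p 0.204). Both genes kept the groups apart, with shTopors 1 well above shTopors 2. Hist2h2be was the only histone gene with both shTopors libraries below both controls, at 5.61 and 6.84 TPM in shCtrl and 5.16 and 4.12 in shTopors, with a log2 difference of -0.36 and an adjusted p of 0.58. Hist1h2bq and Hist1h2bc, named after their values were seen, overlapped between groups: Hist1h2bq was at 62.0 and 120 TPM in shCtrl against 72.3 and 103 in shTopors, and Hist1h2bc at 65.7 and 86.8 against 83.1 and 98.2.

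H3 and H4 form the tetramer at the centre of the nucleosome. Hist1h3e, the most abundant H3 gene, was at 190 and 257 TPM in shCtrl and 315 and 243 in shTopors, which overlap (log2 difference 0.32, adjusted p 0.565). Hist1h3h was at 168 and 220 TPM in shCtrl and 342 and 269 in shTopors, without overlap (0.66, adjusted p 0.303). Hist1h3c was at 64.1 and 93.7 TPM in shCtrl and 242 and 155 in shTopors, with a log2 difference of 1.31 ± 0.31 and an adjusted p of 0.178. The make-up of H3 transcripts differed between groups, with Hist1h3e at 25.6% and 26.4% of H3 TPM in shCtrl and 19.3% and 20.5% in shTopors, and Hist1h3c at 8.65% and 9.63% against 14.8% and 13.1%.

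H4 was the largest class by summed TPM, and every H4 gene was higher in both knockdown libraries than in both controls. Hist1h4k, whose difference had the smallest p of all histone genes, was at 202 and 263 TPM in shCtrl and 563 and 446 in shTopors, with a log2 difference of 1.11 ± 0.24 and an adjusted p of 0.171. Hist1h4i was at 105 and 141 TPM in shCtrl and 301 and 245 in shTopors (1.15 ± 0.25, adjusted p 0.172), and Hist1h4n at 297 and 412 TPM against 713 and 583 (0.88, adjusted p 0.224). Hist1h4h was the most abundant H4 gene in shCtrl but had the smallest difference of the class, at 369 and 463 TPM in shCtrl and 469 and 537 in shTopors (0.28, adjusted p 0.565). Its share of H4 TPM was 18.7% and 19.3% in shCtrl and 11.8% and 15.7% in shTopors.

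**Figure D2:**
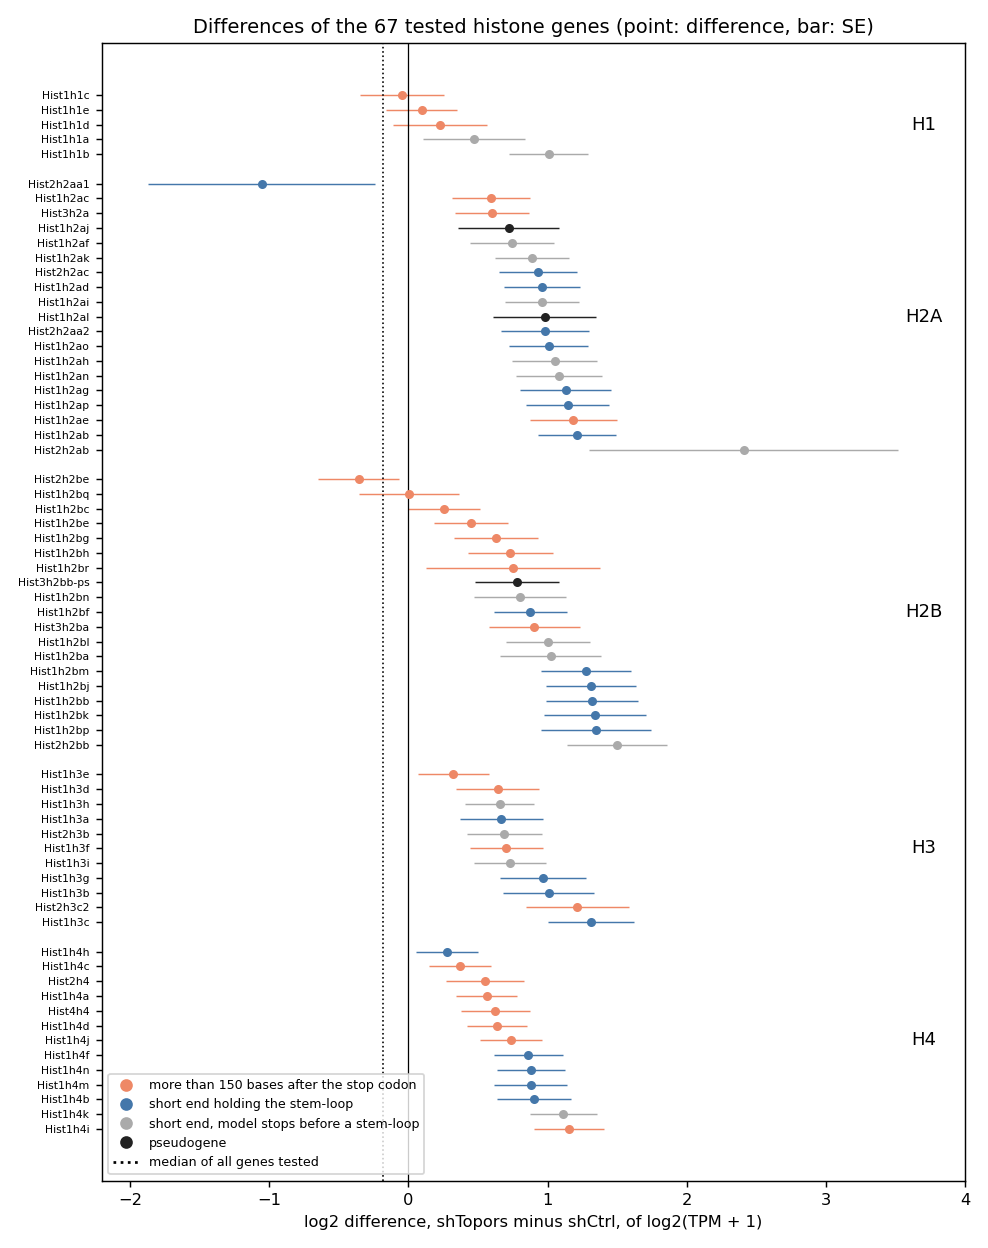
Log2 difference (shTopors minus shCtrl, x axis) of each of the 67 tested histone genes with its standard error, grouped by class and coloured by the annotated 3′ end. The dotted line is the median of all 13509 tested genes, -0.18, and 65 of the 67 points lie to its right.

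The clusters were alike in direction. Median log2 differences were 0.88 for 54 tested Hist1 genes, 0.93 for 9 Hist2 genes, 0.78 for 3 Hist3 genes and 0.62 for Hist4h4. Hist4h4, the single gene of Hist4, was at 60.2 and 77.9 TPM in shCtrl and 107 and 105 in shTopors, without overlap (adjusted p 0.317). Hist3h2a, the most abundant Hist3 gene, was at 35.6 and 48.5 TPM in shCtrl and 60.1 and 67.2 in shTopors, without overlap (adjusted p 0.358). Hist1 genes made up 89.6% and 89.2% of histone TPM in shCtrl and 87.4% and 88.5% in shTopors.

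Histone genes of the germline were low. The testis H1 gene Hist1h1t was at 0, 0.168, 0.052 and 0.052 TPM in shCtrl 1, shCtrl 2, shTopors 1 and shTopors 2, and Hist1h2aa was listed at 0 in all 4 libraries. Hist1h2ba, which encodes a testis H2B, was measured at 7.27 and 9.03 TPM in shCtrl and 24.2 and 12.6 in shTopors (log2 difference 1.02, adjusted p 0.281). With Hist2h3c1, at 0.316, 0.0617, 1.81 and 0.396 TPM in the same order, Hist1h1t and Hist1h2aa are the 3 genes that were not tested.

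Many of these genes are near-identical, which limits statements on single genes. The 67 coding genes hold 62 distinct coding sequences, with 10 genes in 5 pairs of exact copies. These are Hist2h2aa1 with Hist2h2aa2, Hist1h2bq with Hist1h2br, Hist1h4m with Hist1h4n, Hist1h2ao with Hist1h2ap and Hist2h3c1 with Hist2h3c2. How reads were divided within each pair is uncertain. The median identity to the nearest gene of the same class and length was 99.0% for H2A, 98.4% for H2B, 98.9% for H3 and 96.8% for H4. Some models also overlap other genes on the same strand: Hist1h1e with Hist1h2be, Hist2h2bb with the noncoding Gm42743 and Hist3h2a with Trim17. Hist1h1e and Hist1h2be also overlap the pseudogene Gm11398. Hist2h2aa1 and Hist2h3c1 overlap the noncoding Gm20634, and Hist1h2ac overlaps the rRNA gene Gm24991. Hist2h2ab, Hist2h2aa1, Hist2h2aa2, Hist2h3b, Hist2h2bb and Hist1h4b have an annotated antisense transcript on the other strand, and the strand setting used for counting is not known. Over the 14 tested genes under 97% identity to their nearest gene, a subset chosen after the data were seen, the median log2 difference was 0.77. Adding the 10 tested genes that had no coding gene of the same class and length to compare with gave 24 genes and a median of 0.75. Unequal lengths were not compared, so Hist2h2ac, of 387 coding bases, was set only against Hist1h2aa, at 82.7%. Neither set is therefore shown to hold only genes whose reads can be told apart.

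Genes also differed by their annotated 3′ end, in a grouping whose limit of 150 bases after the stop codon was set after the values were seen and is given without a test. The 25 tested genes with longer ends had a median log2 difference of 0.60, and 17 of them did not overlap as higher. The 23 genes with a short end that holds the stem-loop had a median of 0.98, and 22 did not overlap as higher. For 16 tested genes whose short model lacks the stem-loop the median was 0.98, with 15 higher without overlap. Among all tested genes 14.6% were higher without overlap. Next to the limit stood Hist1h2bp with 150 bases and Hist1h4a with 154. Within classes the extended and short stem-loop medians were 0.60 and 0.996 for H2A, 0.54 and 1.32 for H2B, 0.67 and 0.99 for H3, and 0.62 and 0.88 for H4. The hexamer AATAAA, a poly(A) signal, was found after the stop codon of 17 tested genes with a median of 0.59, against 0.96 for 47 without it. The extended median lay under the short stem-loop median in all 17 fits made, including one with the trend on transcript length and GC content removed. Fits that changed only the variance model or added a replicate block cannot move these medians. All 17 fits draw on the same libraries and are not independent. The tested H1 genes Hist1h1c, Hist1h1d and Hist1h1e and the H2B genes Hist2h2be, Hist1h2bq and Hist1h2bc belong to the extended group. These were picked after their values were seen. Other extended genes had large differences, as Hist2h3c2 (1.22) and Hist1h2ae (1.19). Hist1h4i, with 376 bases after the stop codon, had the largest of its class. The short stem-loop group holds Hist2h2aa1 (-1.05), the lowest of all, and Hist1h4h (0.28), the lowest H4 gene.

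Within classes, the differences of genes with and without a promoter motif overlapped. H2B genes with ATTTGCAT had a median log2 difference of 1.28 over 7 genes and those without it 0.88 over 9, with ranges of 0.45 to 1.50 and 0.01 to 1.35 that overlap. For H2A the medians were 0.99 over 6 tested genes with the motif and 0.98 over 11 without. H4 genes with CCAAT had a median of 0.56 over 3 genes, with a range of 0.37 to 0.63, and those without it 0.88 over 9, with a range of 0.28 to 1.15.

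H2A and H2B genes often lie back to back and share the sequence between their starts. There were 14 such divergent pairs, with 173 to 306 bases between the genes, and both genes were tested in 13. The log2 differences within a pair lay a median of 0.29 apart, with 7 pairs under 0.3 apart. Whether paired genes lie closer than unpaired H2A and H2B genes was not tested. H2B was above H2A in 6 pairs and below in 7. The closest were Hist1h2ai and Hist1h2bl at 0.96 and 1.004, and the widest Hist2h2ac and Hist2h2be at 0.93 and -0.36, followed by Hist1h2ao and Hist1h2bq at 1.01 and 0.01. In both of the widest pairs the H2B gene has an extended annotated end. Hist1h2bq and Hist1h2ao are exact coding copies of Hist1h2br (0.75) and Hist1h2ap (1.14), so how reads were divided between them is uncertain. The pairs also include the pseudogenes Hist1h2aj, with Hist1h2bm at 0.72 and 1.28, and Hist3h2bb-ps.

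**Figure D3:**
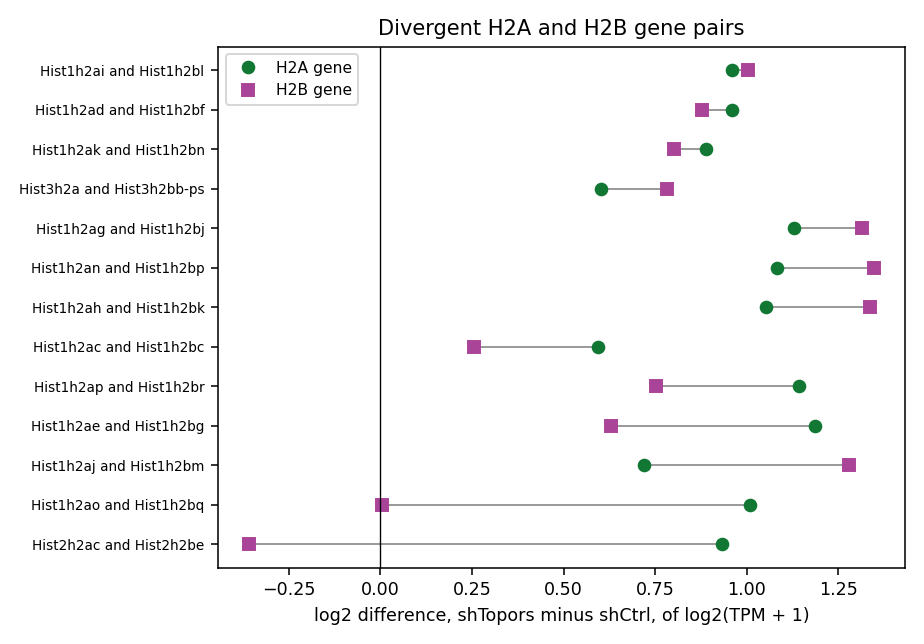
Log2 difference (shTopors minus shCtrl, x axis) of the H2A gene (circle) and the H2B gene (square) of each of 13 divergent pairs, joined by a line and ordered by their gap. The lines are short in the upper rows and longest for Hist2h2ac with Hist2h2be, where the H2B point lies at -0.36.

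Genes of DNA replication and of mitosis give the cell-cycle level beside the histones in the same libraries. Of 43 S phase and DNA replication genes, 0 passed the adjusted threshold, and 7 were higher at an unadjusted p under 0.05 and 0 lower. Among all genes 3.98% were higher and 10.7% lower at that p. Both shTopors libraries lay above both controls for 23 of the 43 and below both for 1, beside 14.6% and 35.2% of all genes. The median log2 difference of the 43 genes was 0.39, beside -0.18 for all genes. Mcm10, a replication initiation factor, was at 3.12 and 3.83 TPM in shCtrl and 12.6 and 7.18 in shTopors (log2 difference 1.24, adjusted p 0.223). Chek1, a kinase of the replication checkpoint, was at 4.16 and 5.57 TPM against 10.2 and 11.8 (1.04, adjusted p 0.224). The sum over the 43 genes was 899 and 1167 TPM in shCtrl and 1522 and 1115 in shTopors, which overlap. Of 26 mitosis genes, 24 were higher at an unadjusted p under 0.05, none passed the adjusted threshold, and the median was 1.12. Without overlap, 25 of the 26 mitosis genes were higher and 0 lower. Among them Birc5, a subunit of the chromosomal passenger complex, was at 12.5 and 13.5 TPM against 48.9 and 27.4 (1.43, adjusted p 0.177), and the checkpoint kinase Bub1 at 2.16 and 3.43 against 11.7 and 7.37 (1.46, adjusted p 0.177). Like the histones, mitosis genes were higher in shTopors 1 than in shTopors 2, in 26 of 26, and S phase genes in 35 of 43. The part of these cell-cycle levels in the histone difference was not tested.

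Histone TPM per S phase TPM was 5.24 and 5.31 in shCtrl and 7.18 and 7.36 in shTopors. The libraries of a group differed little in this ratio and the groups did not overlap, with a log2 difference of 0.46 and an exact two-sided permutation p of 0.333, the smallest possible. By class the ratio to S phase TPM was 0.879 and 0.950 against 1.39 and 1.39 for H2A, 0.915 and 1.02 against 1.64 and 1.43 for H2B, 0.825 and 0.833 against 1.07 and 1.06 for H3, and 2.20 and 2.06 against 2.61 and 3.06 for H4. H1 TPM per S phase TPM overlapped, at 0.421 and 0.448 in shCtrl and 0.470 and 0.422 in shTopors. Against mitosis TPM the histone ratio went the other way, from 25.5 and 24.8 in shCtrl to 15.5 and 22.6 in shTopors.

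**Figure D4:**
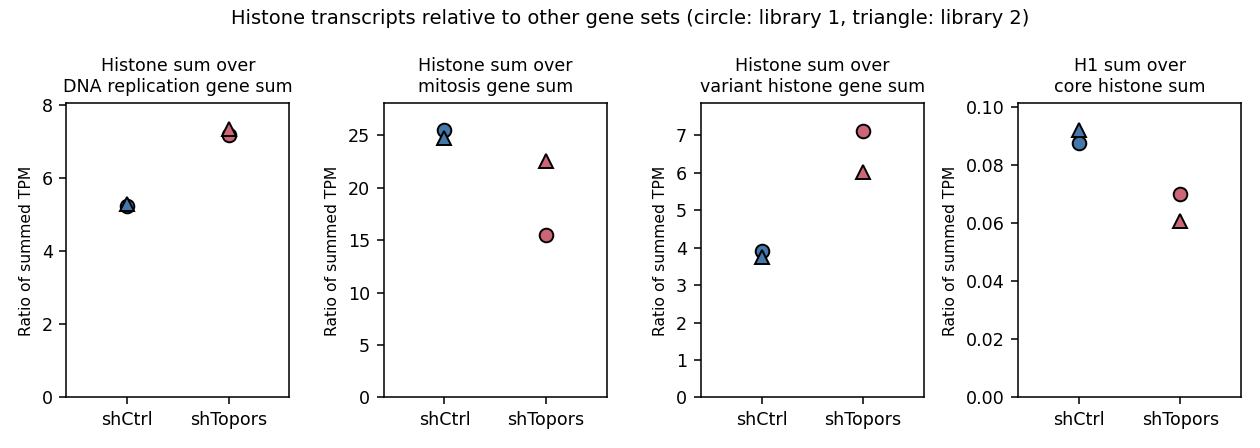
Ratios of summed TPM (y axes, from 0) in each library: all histone genes over DNA replication genes, over mitosis genes and over replication-independent variants, and H1 over core histones (circle library 1, triangle library 2). The groups do not overlap in any panel, and the ratios to replication and variant genes are higher in shTopors while the other two are lower.

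Replication-independent histone variants, most of which are made throughout the cell cycle from polyadenylated mRNAs, had a lower median than the replication-dependent genes. Of 9 tested variant genes of 11, 3 were higher at an unadjusted p under 0.05, against 3.98% of all genes. The median log2 difference of the 9 genes was -0.13, beside -0.18 for all genes. H2afx, the variant phosphorylated at DNA breaks, whose mRNA can also end at a stem-loop, was at 55.6 and 61.4 TPM in shCtrl and 161 and 106 in shTopors (1.14, adjusted p 0.192). H2afz was at 82.8 and 87.2 TPM against 169 and 135 (0.82, adjusted p 0.224). The centromeric Cenpa was at 6.41 and 8.69 TPM against 19.0 and 11.7 (0.91, adjusted p 0.295). The abundant H3.3 genes overlapped, with H3f3a at 187 and 266 TPM against 205 and 196 and H3f3b at 379 and 737 against 436 and 492. Histone TPM per variant TPM was 3.92 and 3.75 in shCtrl and 7.11 and 6.02 in shTopors.

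Genes of the machinery that processes and degrades histone mRNAs had differences around 0. Of 25 processing and decay genes 23 were tested, 0 at an adjusted and 0 at an unadjusted p under 0.05 in either direction. At that unadjusted p 3.98% of all genes were higher and 10.7% lower. The median of the 23 genes was 0.06, beside -0.18 for all genes. Slbp was at 21.8 and 26.7 TPM in shCtrl and 27.4 and 24.5 in shTopors, which overlap (0.10, adjusted p 0.872). Lsm11, a protein of the U7 particle, was at 2.28 and 2.36 TPM against 2.94 and 4.40 (0.47, adjusted p 0.488). Lsm1, part of the ring that starts decay of histone mRNAs, was at 9.72 and 14.1 TPM against 16.5 and 18.8 (0.55, adjusted p 0.430). Lsm10, the other Sm-like protein of the U7 particle, was lower without overlap, at 13.2 and 14.2 TPM against 10.0 and 10.1 (-0.41, adjusted p 0.494). Of the 23 tested genes of this list, 5 were higher and 5 lower without overlap, and 13 overlapped. The shares without overlap over all genes were 14.6% higher and 35.2% lower. The U7 RNA gene Rnu7 was listed at 0.0865 to 0.109 TPM and was not tested.

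Of 10 genes for transcription of histone genes, 0 passed the adjusted threshold, and 1 was lower and 0 higher at an unadjusted p under 0.05. The shares over all genes were 10.7% lower and 3.98% higher. The median of the 10 genes, -0.16, lay close to the all-gene median of -0.18. Npat, the coactivator of histone loci, was at 13.0 and 16.1 TPM in shCtrl and 12.1 and 12.5 in shTopors (-0.22, adjusted p 0.716), and Hinfp was at 9.85 and 10.6 against 11.3 and 10.2, which overlap. Nfyc, a subunit of the CCAAT factor NF-Y, was at 21.2 and 22.3 TPM against 14.1 and 12.1 (-0.69, adjusted p 0.306). Pou2f1, which encodes the octamer factor Oct-1, was at 11.7 and 16.6 TPM against 7.58 and 11.3 (-0.54, adjusted p 0.465).

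Of 21 histone chaperone genes, 2 were higher at an unadjusted p under 0.05, 0 were lower and 0 passed the adjusted threshold. Unadjusted, 3.98% of all genes were higher and 10.7% lower. The median of the 21 genes was 0.01, beside -0.18 for all genes. Asf1b, a chaperone of H3 and H4 in dividing cells, was at 5.11 and 5.48 TPM in shCtrl and 10.8 and 9.45 in shTopors (0.82, adjusted p 0.264). Rbbp7, a histone-binding subunit of several chromatin complexes, was at 72.8 and 91.6 TPM against 131 and 131 (0.67, adjusted p 0.281). Neither overlapped between groups.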

How the data were processed

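The authors deposited TPM per gene for 4 libraries. The labels' protocols name TRIzol extraction, ribosomal RNA depletion and strand-specific kits. HISAT2, HTSeq, DESeq2, StringTie and the build mm10 are listed per the submitters' processing notes, with no versions or roles. Not given in the sources used here were which program wrote the TPM, its strand setting and how it treated multiply mapped reads. The table held 52633 rows, and values of 3 identifiers on more than 1 row were summed. GENCODE M21 held 52483 identifiers and all 70 histone genes.

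The test was limma 3.58.1 (R 4.3.3, mean-variance trend) on log2(TPM + 1), shTopors minus shCtrl, over 13509 genes averaging at least 1 TPM. Benjamini-Hochberg adjustment ran over all of these, with calls under 0.05. Sums were compared by exact permutation. The limma fit was tested on simulated data with known differences. Named genes were Topors, the 2 most abundant histone genes per class, the highest of Hist2, Hist3 and Hist4, those with the smallest p per direction, the largest and smallest differences, germline members and 2 genes per list; others are examples chosen after their values were seen. The genes and lists were chosen with earlier results of these data known. Alternatives were other pseudocounts (0.1 and 5), filters, scalings, variance models, a replicate block, a length and GC correction, summed copies and each library left out.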

Additional observations from a re-analysis of the deposited data

How the results depend on the processing

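With all 4 libraries, 0 histone genes passed the adjusted threshold in any alternative, and 40 to 55 were higher at an unadjusted p under 0.05. Leaving out 1 library gave 0 to 41 called higher, 0 to 1 called lower, 10 to 54 higher and 0 to 1 lower at an unadjusted p. Without shTopors 1, 242 of all genes were called higher and 921 lower, and without shTopors 2, 638 and 1391. The median log2 difference was 0.65 to 1.05 with a library left out and 0.75 to 1.06 otherwise. Median-of-ratios scaling moved the all-gene median from -0.18 to -0.02, and the summed log2 ratio from 0.81 to 1.0. The log2 ratio of histone to S phase TPM was 0.44 without the most abundant gene of each class and 0.45 to 0.48 with a library left out. The difference of Hist1h1c turned to 0.0564 with the length and GC trend removed, 0.14 with median-of-ratios scaling, 0.17 without shCtrl 2 and 0.29 without shTopors 2, with a range of -0.38 to 0.29 over libraries left out. That of Hist2h2aa1 turned to 0.10 without shTopors 1 and was -2.21 without shTopors 2, where it passed the threshold. The causes were not tested. The replicate block, which no label supports as a pairing (r = 0.20 across genes, which are not independent, for 2 pairs), gave 0 histone genes called, 47 higher and 1 lower at an unadjusted p, and a median of 0.88. TPM keeps no depth, so counting error is unknown.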
